A study of Mus musculus with 24 samples.

Results

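The miR-146 family has 4 mature arms in the mouse, mmu-miR-146a-5p, mmu-miR-146a-3p, mmu-miR-146b-5p and mmu-miR-146b-3p (the species prefix is left out from here on), and all 4 are among the 1978 mature miRNAs of a raw count table from male germ cells. They were chosen by name, with measured values of these libraries already known: in round spermatids miR-146a-5p was higher and miR-146b-3p lower in Ago413-/- than in Ago413+/+ cells, and miR-146a-5p was also higher in Ago413+/- cells. The round spermatid differences, the order of the genotypes and the balance of the arms are therefore described without a test, and the arms have adjusted p-values in spermatocytes alone, which that choice did not use.

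Pachytene/diplotene spermatocytes and round spermatids of Ago413+/+, Ago413+/- and Ago413-/- males gave 24 small RNA libraries, 4 of each cell type and genotype. The Ago413-/- mice carry a constitutive deletion of the neighbouring genes Ago4, Ago1 and Ago3 (all of Ago1, part of Ago3 and Ago4), so that every cell of the testis lacks them, while Ago2 is not targeted. Ago413+/- mice carry the deletion on 1 of the 2 copies. The allele was made in embryonic stem cells of another strain, passed through a Sox2-cre deleter and bred onto C57BL/6J. Cells came from testes of mice of 10 to 15 weeks, with 2 to 5 mice pooled for a preparation, and were enriched on a gradient to over 70% purity, which leaves room for other testis cells. The deleted genes are not measured in a miRNA table, so the genotypes could not be checked here. The labels number the libraries of a group 1 to 4 but do not say which mice went into which library, so p-values measure the spread between these libraries only.

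A miRNA is cut from a hairpin with a 5p and a 3p arm. Usually 1 arm is held by an Argonaute protein and guides it to messenger RNAs through the seed, bases 2 to 8, while the other arm is mostly degraded. miR-146a is best known from leukocytes, where NF-kB induces it and it represses Traf6 and Irak1, adaptors of Toll-like receptor signalling. miR-146b comes from a separate gene with the same seed on its 5p arm, and the 3p arms of both hairpins are regarded as minor products.

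The mature arms are shown because the seed decides which arms share targets, and because the shared bases of the 5p arms bear on how their reads can be told apart. The sequences are those of RefSeq for GRCm38.p6, 5′ to 3′, with the seed in capitals.
miR-146a-5p: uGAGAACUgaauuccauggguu
miR-146b-5p: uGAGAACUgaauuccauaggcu
miR-146a-3p: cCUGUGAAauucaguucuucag
miR-146b-3p: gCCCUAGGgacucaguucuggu

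The seed GAGAACU was shared by the 2 5p arms and by no other of the 1679 mature miRNAs of the table that matched RefSeq by name. Neither 3p seed occurred in another miRNA of that set. The 5p arms were identical in 20 of 22 bases, including the first 17, and differed by G18A and U21C (miR-146a-5p first, counted from the 5′ end). In the next lines those bases stand in capitals.
miR-146a-5p: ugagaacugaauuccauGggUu
miR-146b-5p: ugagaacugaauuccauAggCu
A read that ends before base 18 cannot be assigned to 1 of these arms, and how the counting treated such reads is not given in the sources used here. Set base against base without a shift, the 3p arms matched in 4 of 22 positions and share no such run of first bases.

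Both hairpins are shown to place the arms, which stand in capitals. Mir146, the gene of miR-146a, lies at chr11:43374397-43374461 on the minus strand and overlaps no gene of GENCODE M21. Its nearest protein-coding gene, Pttg1, is 45789 bases away. Mir146b lies at chr19:46342762-46342870 on the plus strand, within an intron of Mfsd13a and on the same strand.
Mir146: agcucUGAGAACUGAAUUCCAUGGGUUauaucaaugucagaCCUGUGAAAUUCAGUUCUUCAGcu
Mir146b: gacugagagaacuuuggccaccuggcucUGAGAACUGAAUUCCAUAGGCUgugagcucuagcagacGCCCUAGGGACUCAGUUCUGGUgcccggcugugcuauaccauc

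Library totals ran from 182904 to 1072637 counts, with the lowest median, 262790 counts, in Ago413-/- spermatocytes. Levels are CPM, counts divided by library size, with the sizes scaled by TMM (trimmed mean of M values) over the 24 libraries. A listed 0 allows up to 3 counts, or 2.80 CPM at the greatest depth and 16.4 CPM at the lowest. These limits, like the intervals below, do not include the error of PCR, whose copies were not marked by molecular identifiers. They also leave out the spread between libraries, and so are limits of counting alone. Of 4 miRNAs used as marks of meiotic and later germ cells (miR-881-3p, miR-449a-5p, miR-34c-5p and miR-34b-5p), all were detected in each group, and they summed to between 108111 and 289267 CPM in a library. Marker miRNAs of leukocytes, blood, endothelium and other somatic cells were detected in all 6 groups, apart from miR-144-3p, which was listed at 0 in Ago413+/- spermatocytes.

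The 4 arms were unequal in amount. Over the 24 libraries miR-146a-5p had 19028 counts, miR-146b-5p 10338, miR-146b-3p 226 and miR-146a-3p 1. The single miR-146a-3p count was in Ago413+/+ spermatocyte replicate 1 and made up 0.00526% of the counts of its hairpin (Wilson 95% interval 0.000928 to 0.0298%). miR-146a-3p was therefore too rare for any comparison, and the other 3 arms passed the filter on low counts (10 or more counts in 3 or more libraries).

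In round spermatids miR-146a-5p, the abundant arm of Mir146, was lowest in Ago413+/+, intermediate in Ago413+/- and highest in Ago413-/- cells. The 4 Ago413+/+ libraries had 368, 772, 1096 and 438 CPM (replicates 1 to 4). The Ago413+/- libraries had 2661, 1791, 1604 and 1012 CPM, and the Ago413-/- libraries 3740, 2600, 4015 and 3649 CPM. All Ago413-/- libraries lay above all Ago413+/+ libraries, whereas Ago413+/- overlapped Ago413+/+ through its replicate 4 and overlapped Ago413-/- through its replicate 1.

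The means were 669 ± 335 CPM in Ago413+/+, 1767 ± 682 CPM in Ago413+/- and 3501 ± 621 CPM in Ago413-/- round spermatids (SD, n = 4 each). In abundance miR-146a-5p thereby stood in place 114 of all miRNAs in Ago413+/+, place 79 in Ago413+/- and place 60 in Ago413-/-. The log2 fold change of Ago413-/- against Ago413+/+ was 2.57 (SE 0.35), the fourth highest of 426 miRNAs tested. Against the same Ago413+/+ libraries, Ago413+/- had a log2 fold change of 1.52 (SE 0.34), the sixth highest. Between Ago413-/- and Ago413+/- it was 1.05 (SE 0.33). These contrasts helped to choose the arm and carry no p.

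Both arms of the round spermatid pattern that chose the family, miR-146a-5p upward and miR-146b-3p downward, had Ago413-/- libraries that did not overlap Ago413+/+ libraries. Over all 426 miRNAs, 8.22% were higher and 15.5% lower in this comparison without overlap, and nothing is read from the members' count. No arm separated Ago413+/- from Ago413+/+ round spermatids, against 5.4% of all miRNAs. For miR-146a-5p that overlap depended on the scaling: by library totals alone the Ago413+/- libraries (1096 to 2832 CPM) lay above those of Ago413+/+ (392 to 943 CPM), and the order of the means was the same.

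**Figure D1:**
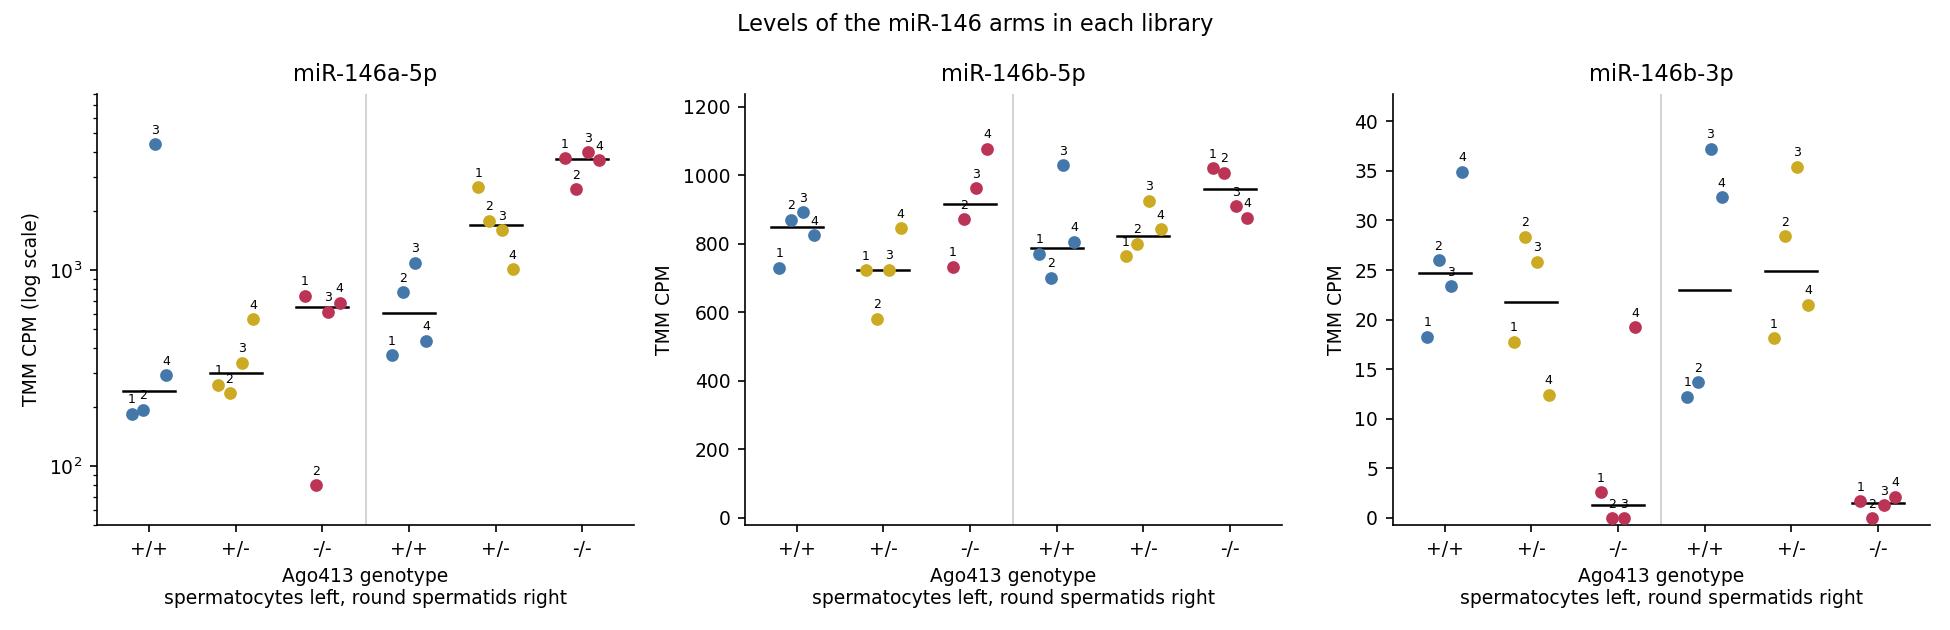
Levels of 3 miR-146 arms in TMM-scaled CPM (y axis, logarithmic for miR-146a-5p) in each of 24 libraries, by Ago413 genotype, with spermatocytes left and round spermatids right of the grey line. Points are libraries with their replicate number and bars are medians of 4; the medians of miR-146a-5p in round spermatids ascend from +/+ to -/-, miR-146b-5p stays between 582 and 1077 CPM, and miR-146b-3p is near 0 in Ago413-/- cells apart from spermatocyte replicate 4.

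In spermatocytes the level of miR-146a-5p was governed by a few libraries. Ago413+/+ libraries had 186, 194, 4398 and 292 CPM, which correspond to 112, 142, 3763 and 92 counts. Ago413+/- libraries had 261, 237, 338 and 565 CPM. Ago413-/- libraries had 741, 79.9, 615 and 683 CPM, from 285, 12, 166 and 142 counts. Replicate 3 of Ago413+/+ was the highest of all 24 libraries and replicate 2 of Ago413-/- the lowest, and the groups overlapped.

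Among 450 miRNAs, miR-146a-5p was the one by which Ago413+/+ spermatocyte replicate 3 stood farthest above the next library of its group, by 3.90 on the log2 scale. The second was miR-223-3p, an abundant miRNA of neutrophils and other myeloid cells, at 2.35. The low library, Ago413-/- replicate 2, was also the shallowest, and its miR-146a-5p lay 2.88 (log2) below the next Ago413-/- library, the 21st largest such gap of 450 miRNAs.

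The genotype difference of miR-146a-5p in spermatocytes could not be fixed in direction. In edgeR's quasi-likelihood test over the 404 miRNAs kept, Ago413-/- against Ago413+/+ gave a log2 fold change of -1.26 (SE 0.89, adjusted p = 0.414). Without Ago413+/+ replicate 3 the mean of that group was 224 ± 58.9 CPM (SD, n = 3) in place of 1268 ± 2087 (n = 4), and the log2 fold change was 1.26 (SE 0.58, adjusted p = 0.220). Ago413+/- averaged 350 ± 150 CPM and Ago413-/- 530 ± 304 CPM. Against Ago413+/+, Ago413+/- had a log2 fold change of -1.83 (SE 0.91, adjusted p = 1.00) with all libraries and 0.69 (adjusted p = 0.998) without that replicate. Ago413-/- against Ago413+/- gave 0.56 (SE 0.89, adjusted p = 0.682). With no filter on low counts the values against Ago413+/+ were -1.45 (adjusted p = 0.0253) for Ago413-/- and -2.05 (adjusted p = 0.000814) for Ago413+/-, both past the threshold and both with replicate 3 of Ago413+/+ included.

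miR-146b-5p, which has the same seed, hardly varied. Spermatocyte libraries had 730, 871, 893 and 825 CPM in Ago413+/+, 723, 582, 724 and 845 CPM in Ago413+/- and 734, 872, 963 and 1077 CPM in Ago413-/-. Round spermatid libraries had 771, 701, 1029 and 805 CPM in Ago413+/+, 763, 800, 926 and 843 CPM in Ago413+/- and 1021, 1008, 910 and 877 CPM in Ago413-/-. No 2 genotypes were separated in either cell type.

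Over the 24 libraries the highest level of miR-146b-5p was 1.85 times the lowest, and its coefficient of variation of 14.3% was the lowest of 450 miRNAs. The next were miR-24-3p at 15.6% and miR-26a-5p at 17.6%, and the median was 48.1%. Scaled by library totals it was 11.3%, again the lowest, where counting error alone would give 5.31%. miR-146a-5p had a coefficient of variation of 103% and a 55.0-fold range, which put it in place 433 of 450 counted from the lowest. The group means of miR-146b-5p ran from 718 ± 108 CPM in Ago413+/- spermatocytes to 954 ± 71.4 CPM in Ago413-/- round spermatids (SD, n = 4 each). The Ago413-/- against Ago413+/+ log2 fold change was 0.12 in spermatocytes (SE 0.28, edgeR adjusted p = 0.795) and 0.36 in round spermatids (SE 0.19, a description). In spermatocytes Ago413+/- against Ago413+/+ gave -0.17 (SE 0.28, adjusted p = 1.00) and Ago413-/- against Ago413+/- gave 0.30 (SE 0.28, adjusted p = 0.489).

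The minor arm miR-146b-3p was scarce, and scarcest in Ago413-/- cells. In round spermatids the counts were 6, 15, 11 and 27 in Ago413+/+, 11, 17, 14 and 15 in Ago413+/- and 1, 0, 1 and 1 in Ago413-/- libraries. All Ago413-/- libraries therefore lay below all others, while Ago413+/+ and Ago413+/- overlapped. Against Ago413+/-, 14.8% of all miRNAs were lower in Ago413-/- without overlap.

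In CPM the round spermatid means of miR-146b-3p were 23.9 ± 12.8, 25.9 ± 7.67 and 1.28 ± 0.922 (Ago413+/+, Ago413+/- and Ago413-/-, SD, n = 4 each). Summed over libraries, 59 Ago413+/+ counts against 3 Ago413-/- counts gave a ratio of 17.6 per total count (exact conditional 95% interval 5.73 to 87.7), and 57 Ago413+/- counts against the same 3 gave 21.0 (6.84 to 105). The fitted log2 fold change of Ago413-/- was -3.74 against Ago413+/+, the lowest of 426 miRNAs, and -3.96 against Ago413+/-. These fits rest on 3 counts and depend on the count that the fit adds to a zero. Ago413+/+ and Ago413+/- differed by a ratio of 0.836 (0.571 to 1.22). These intervals take the counts of a group as a single sum. They leave out the spread between libraries and are no test of the genotypes.

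In spermatocytes the counts of miR-146b-3p were 11, 19, 20 and 11 in Ago413+/+, 6, 20, 11 and 4 in Ago413+/- and 1, 0, 0 and 4 in Ago413-/- libraries. The 4 counts of Ago413-/- replicate 4 came to 19.2 CPM, above the lowest Ago413+/+ library at 18.3 CPM, so the groups overlapped, and the other 3 Ago413-/- libraries had at most 2.60 CPM. The means were 25.6 ± 6.96, 21.1 ± 7.34 and 5.46 ± 9.26 CPM (SD, n = 4 each). Summed over libraries, 61 Ago413+/+ counts against 5 Ago413-/- counts gave a ratio of 5.71 (2.32 to 18.2). Of those 5 counts 4 came from replicate 4, and the interval leaves out this spread between libraries.

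The spermatocyte test of miR-146b-3p stayed short of the threshold. This arm passed the filter on low counts only through Ago413+/+ and Ago413+/- libraries, where it was high. The filter therefore favoured a lower value in Ago413-/-, by edgeR and by DESeq2. Its log2 fold change in Ago413-/- against Ago413+/+ was -2.25 (SE 0.76, edgeR adjusted p = 0.0873), the tenth lowest of 404. It was -2.08 (SE 0.78, adjusted p = 0.103) in Ago413-/- against Ago413+/- and -0.17 (SE 0.57, adjusted p = 1.00) in Ago413+/- against Ago413+/+. Without Ago413-/- replicate 4 the first value became -4.16 (adjusted p = 0.0173), and with DESeq2 it was -2.35 (adjusted p = 0.0289), both past the threshold. Against Ago413+/- the same alternatives gave -3.91 (adjusted p = 0.0354) and -2.23 (adjusted p = 0.0399). The adjusted p against Ago413+/+ ranged from 0.0173 to 0.166 over the alternatives tried.

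In the spermatocyte tests none of the 3 arms was called in any contrast, where a call needs an adjusted p under 0.05 and a log2 fold change of at least 1 in size. Of all 404 miRNAs, 4.46% were called between Ago413-/- and Ago413+/+, 2.23% between Ago413-/- and Ago413+/-, and 0% between Ago413+/- and Ago413+/+, where 13 miRNAs had an unadjusted p under 0.05 and DESeq2 called 0. At an unadjusted p under 0.05 stood 1 arm of 3, miR-146b-3p, in each contrast of Ago413-/-, as did 25.5% of all miRNAs against Ago413+/+ and 23.8% against Ago413+/-. DESeq2 called it in both, where it called 15.1% and 14.1% of all miRNAs. No arm separated the libraries of 2 genotypes in spermatocytes, against 19.8%, 10.6% and 2.48% of all miRNAs in the same order. Contrasts that share a genotype share its libraries and are not independent of each other.

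**Figure D2:**
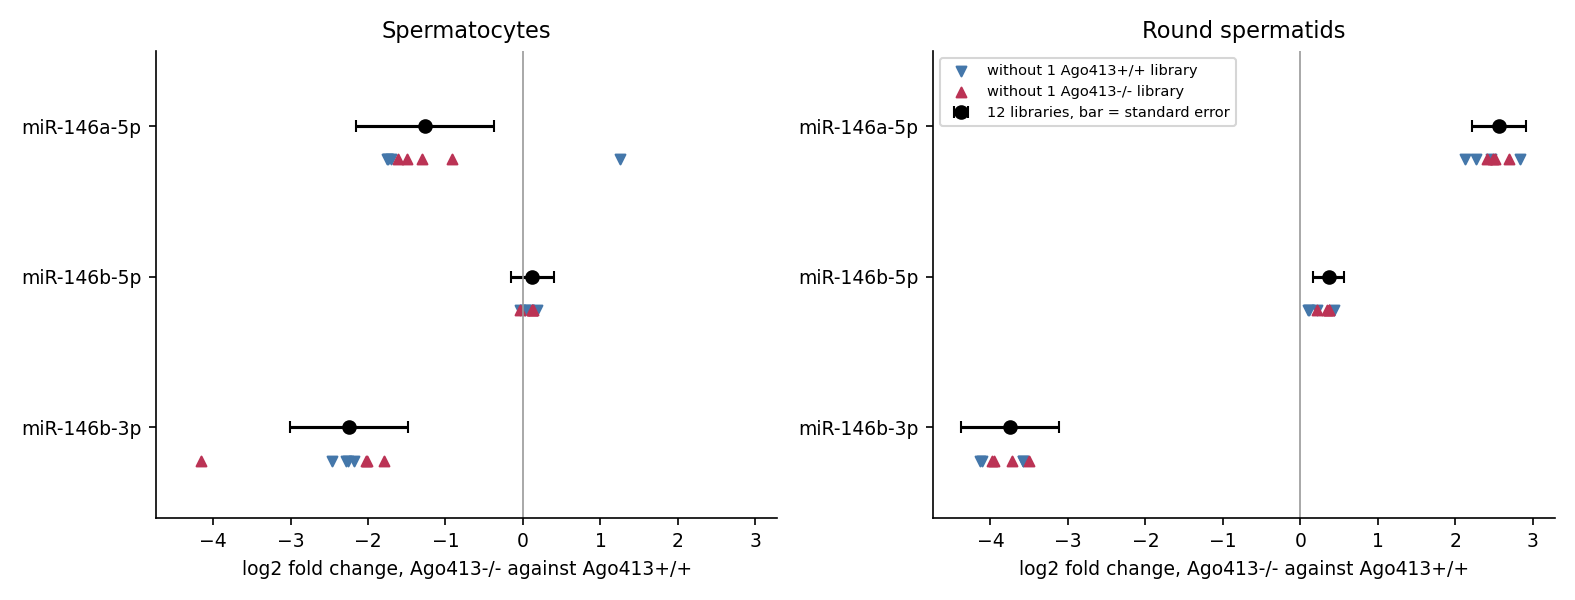
Log2 fold change of Ago413-/- against Ago413+/+ (x axis) for 3 miR-146 arms in spermatocytes and round spermatids, as circles with the standard error for the fit of 12 libraries and as triangles for fits without 1 library. The spermatocyte value of miR-146a-5p moves from -1.26 to 1.26 without 1 Ago413+/+ library, while all round spermatid values of miR-146a-5p stay above 0 and those of miR-146b-3p below.

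With few miR-146b-3p counts beside an even miR-146b-5p, the balance of the arms differed between genotypes. For round spermatids the 3p arm held 2.70% of the summed miR-146b counts of Ago413+/+ (Wilson 95% interval 2.10 to 3.47%), 2.92% of those of Ago413+/- (2.26 to 3.76%) and 0.143% of those of Ago413-/- (0.0488 to 0.421%). In spermatocytes it held 2.82% (2.20 to 3.61%), 3.22% (2.38 to 4.33%) and 0.554% (0.237 to 1.29%). The 16 libraries of Ago413+/+ and Ago413+/- had single shares between 1.45 and 4.65%. The Ago413-/- libraries had 0.163, 0, 0.142 and 0.245% in round spermatids and 0.353, 0, 0 and 1.75% in spermatocytes, so only spermatocyte replicate 4 reached into the range of the other genotypes.

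The shift was compared with other hairpins as a description, since the balance was part of the choice. For each hairpin with both arms kept, the log2 ratio of the minor to the major arm (0.5 added to each count) was taken as a median over libraries. For miR-146b it was lower in Ago413-/- than in Ago413+/+ by 3.60 in round spermatids, the lowest of 104 hairpins, whose median shift was -0.11. The next hairpins were miR-455, miR-148a and miR-32. In spermatocytes it was lower by 2.67, the third after miR-199b and miR-470 among 100 hairpins with a median of -0.22. The libraries of the 2 genotypes did not overlap in this ratio in either cell type, as for 16.3% of hairpins in round spermatids and 8% in spermatocytes in the same direction.

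**Figure D3:**
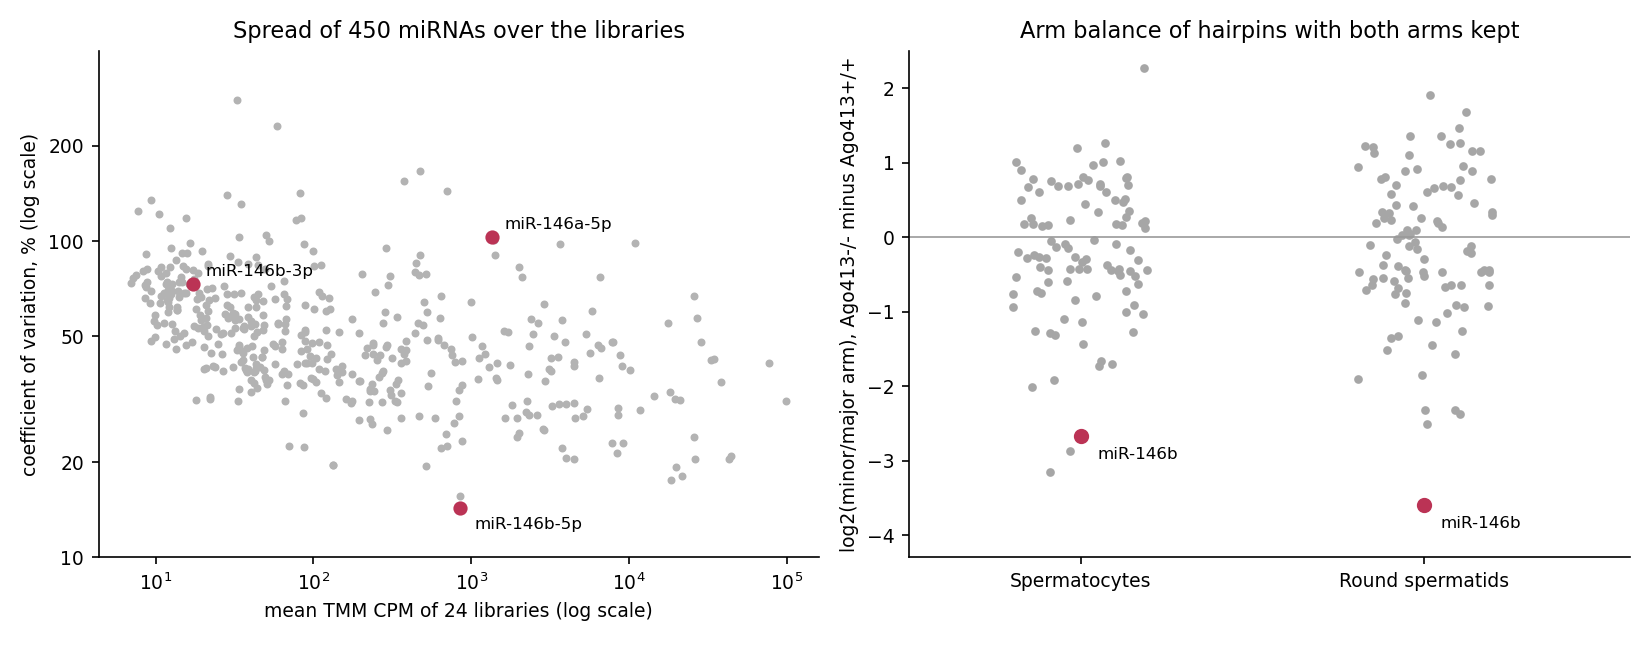
Left, coefficient of variation in percent (y axis) against mean TMM-scaled CPM (x axis), both logarithmic, for 450 miRNAs over 24 libraries; right, difference of Ago413-/- and Ago413+/+ in the log2 ratio of minor to major arm for 100 hairpins in spermatocytes and 104 in round spermatids, spread sideways at random. miR-146b-5p has the lowest coefficient, 14.3%, and miR-146b lies at -2.67 and -3.60 on the right.

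The 2 arms with the shared seed were also set against each other within each library. In round spermatids the share of miR-146a-5p in their joint counts had a median of 43.4% for Ago413+/+ (range 32.3 to 52.4%), 66.3% for Ago413+/- (range 54.6 to 77.7%) and 79.6% for Ago413-/- (range 72.1 to 81.5%). This ratio needs no scaling between libraries. Its ranges overlapped only where Ago413+/- replicate 1 reached into Ago413-/-, and the lowest Ago413+/- library (54.6%) was close to the highest Ago413+/+ library (52.4%). The arm was chosen with this difference known, and other pairs of miRNAs were not compared in this way. Nothing is therefore read from the lack of overlap. In spermatocytes the medians were 23.2% (18.3 to 83.1%), 30.4% (26.5 to 40.1%) and 38.9% (8.39 to 50.3%), with overlap between all groups. The summed level of both arms was 1495 ± 442, 2600 ± 643 and 4454 ± 588 CPM in round spermatids (SD, n = 4 each), and miR-146a-5p alone differed by 2832 CPM between the means of Ago413-/- and Ago413+/+.

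**Figure D4:**
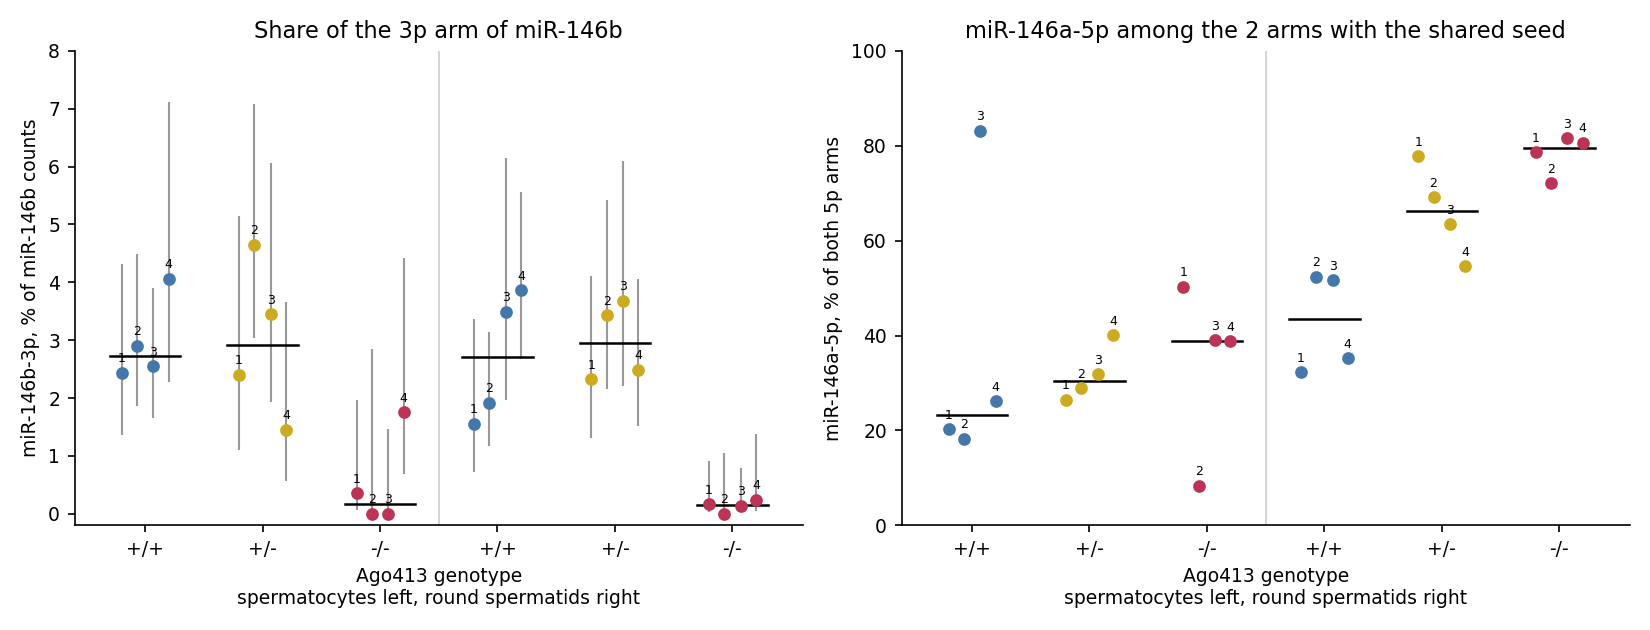
Left, share of miR-146b-3p in the counts of miR-146b (y axis, percent) with Wilson 95% intervals as grey lines; right, share of miR-146a-5p in the joint counts of both 5p arms (y axis, percent), each by Ago413 genotype and library, with spermatocytes left and round spermatids right of the grey line. Points carry replicate numbers and bars are medians of 4; the left share is at most 0.245% in Ago413-/- round spermatids, and the right share has medians of 43.4, 66.3 and 79.6% in round spermatids.

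Between the cell types, miR-146a-5p differed within the genotypes that carry the deletion. In Ago413-/- cells the round spermatid mean was 6.61 times the spermatocyte mean, and in Ago413+/- cells 5.04 times, with no overlap of the libraries in either genotype. In Ago413+/+ cells the ratio was 0.527 and the libraries overlapped through spermatocyte replicate 3, while the other 3 spermatocyte libraries (186 to 292 CPM) lay below all round spermatid libraries (368 to 1096 CPM). miR-146b-5p had ratios of 0.996, 1.16 and 1.05 in Ago413+/+, Ago413+/- and Ago413-/- cells, and miR-146b-3p had 0.931, 1.23 and 0.234, all with overlap. Of 450 miRNAs, 1.33% had no overlap between the cell types in Ago413+/+, 2.89% in Ago413+/- and 12.2% in Ago413-/-. By mean level the order of miR-146a-5p was Ago413-/- and Ago413+/- round spermatids, Ago413+/+ spermatocytes, Ago413+/+ round spermatids, Ago413-/- spermatocytes and Ago413+/- spermatocytes, and each neighbouring pair overlapped.

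Labels of 11 of the 12 spermatocyte and round spermatid libraries with the same genotype and replicate number carried adjacent library numbers, but whether such pairs came from the same suspension is not given. For a description the numbers were cut into a lower set, up to 60, and a higher set, above 60. The cut was chosen after seeing the data, and no label marks a break there. Each set held 2 libraries of Ago413+/+ and 2 of Ago413-/- of each cell type. Only 1 Ago413+/- library of a cell type was in the higher set. In round spermatids the Ago413-/- mean of miR-146a-5p was 5.56 times the Ago413+/+ mean in the lower set and 5.00 times in the higher. The ratios for miR-146b-3p were 0.0642 and 0.0495. In spermatocytes the miR-146a-5p ratio was 2.16 in the lower set and 0.277 in the higher set, which holds Ago413+/+ replicate 3, and the miR-146b-3p ratio was 0.0587 and 0.330.

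miR-223-3p, the leukocyte miRNA, had the pattern most like that of miR-146a-5p among 450 miRNAs. Their log2 CPM had a Pearson r of 0.823 over the 24 libraries, which share depth and scaling, and 0.798 without Ago413+/+ spermatocyte replicate 3. In round spermatids miR-223-3p had 0, 6.39, 0 and 2.40 CPM in Ago413+/+, 14.8, 8.35, 12.6 and 14.3 CPM in Ago413+/- and 8.31, 19.5, 16.8 and 32.3 CPM in Ago413-/- libraries, so that both other genotypes lay above Ago413+/+ as listed. The 0 of Ago413+/+ replicate 3 allows up to 8.73 CPM by library total, above the lowest library of each other genotype. Of all 426 miRNAs, 8.22% were higher without overlap in Ago413-/- than in Ago413+/+, and 2.82% in Ago413+/- than in Ago413+/+. In spermatocytes miR-223-3p had 3.32, 2.74, 32.7 and 0 CPM in Ago413+/+ and at most 3.70 CPM in the other genotypes. The 32.7 CPM, from 28 counts, are those of the library with the high miR-146a-5p.

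The next in likeness were miR-126a-3p, an endothelial miRNA (r = 0.673), and miR-511-3p, from an intron of the macrophage gene Mrc1 (r = 0.667). miR-126a-3p averaged 1244 ± 755 CPM in Ago413+/+ and 3558 ± 1615 CPM in Ago413-/- round spermatids, and miR-511-3p 7.55 ± 2.89 and 18.4 ± 4.28 CPM (SD, n = 4 each). Without Ago413+/+ spermatocyte replicate 3 the second was miR-878-5p, at 0.711. miR-146b-5p itself had r = 0.435 with miR-146a-5p.

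**Figure D5:**
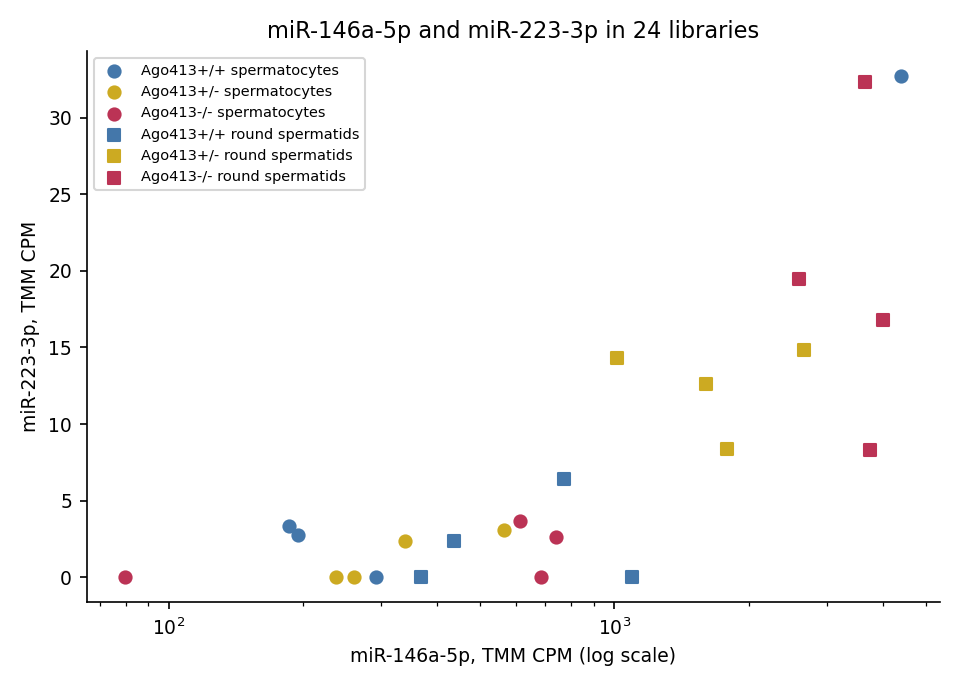
miR-223-3p (y axis, TMM-scaled CPM) against miR-146a-5p (x axis, TMM-scaled CPM, logarithmic) in 24 libraries, with colours for genotype, circles for spermatocytes and squares for round spermatids. The circle at the upper right is Ago413+/+ spermatocyte replicate 3, with 4398 CPM of miR-146a-5p and 32.7 CPM of miR-223-3p, next to the Ago413-/- round spermatids.

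Since miR-146a-5p is abundant in leukocytes, the levels of leukocyte miRNAs are given beside it. Of 5 such miRNAs (miR-142a-3p, miR-142a-5p, miR-150-5p, miR-155-5p and miR-223-3p), 2 were called higher in Ago413-/- than in Ago413+/+ round spermatids and none lower, where 7.51% of all 426 miRNAs were called higher. miR-142a-5p went from 178 ± 79.3 to 367 ± 71.5 CPM (log2 fold change 1.18, SE 0.31, edgeR adjusted p = 0.0122) and miR-223-3p from 2.20 ± 3.02 to 19.2 ± 9.94 CPM (2.65, SE 0.64, adjusted p = 0.00997; SD, n = 4 each). miR-223-3p passed the filter on low counts only through Ago413+/- and Ago413-/- libraries, where it was high, so the filter favoured a call upward. The list was chosen with earlier results of these data known, so its p-values are not independent evidence. The median log2 fold change of the list was 1.09, and that of all miRNAs 0.13. The summed level of the 5 was 214 to 418 CPM in Ago413+/+, 418 to 588 CPM in Ago413+/- and 486 to 644 CPM in Ago413-/- round spermatids, with no member at 0 in a whole group. Without 1 library, 1 or 2 of the list were called, with 1 left when Ago413+/+ replicate 1 or 2 or Ago413-/- replicate 3 or 4 was omitted. Without Ago413-/- replicate 3 or 4, miR-223-3p fell short of the filter and was not tested.

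In spermatocytes 4 leukocyte miRNAs could be tested and none was called by edgeR or DESeq2 between Ago413-/- and Ago413+/+, where 1 had an unadjusted p under 0.05, against 25.5% of all miRNAs. Their list summed to 311 to 541 CPM in Ago413+/+, 436 to 935 CPM in Ago413+/- and 280 to 544 CPM in Ago413-/- libraries. In Ago413+/- against Ago413+/+ round spermatids edgeR called 0% of all miRNAs, and DESeq2 called 8 (1.88%), of which miR-142a-3p was the 1 leukocyte miRNA. There 4 of the 5 leukocyte miRNAs had an unadjusted p under 0.05, as did 16% of all 426. The part of leukocyte RNA in the level of miR-146a-5p was not tested, and in bulk samples fewer cells of a type and less RNA per cell cannot be told apart.

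Some marker miRNAs of other somatic cells were also called higher in Ago413-/- than in Ago413+/+ round spermatids, where 7.51% of all 426 miRNAs were called higher. Both blood miRNAs tested (miR-451a at a log2 fold change of 3.26 and miR-486a-5p at 2.11), 1 of 2 endothelial (miR-126a-3p, 1.63), 1 of 2 gonadal somatic (miR-202-5p, 1.53), 1 of 5 peritubular and mesenchymal (miR-199a-3p, 1.14) and 1 of 5 epithelial miRNAs (miR-141-3p, 2.55) were called higher and none lower, with edgeR adjusted p from 0.00976 to 0.0305. In the peritubular and mesenchymal list miR-145a-5p (-1.74) and miR-143-3p (-0.14) were lower without a call. The median of that list was 0.19, near the 0.13 of all miRNAs. None of 3 spermatogonial and none of 4 germ cell miRNAs was called by edgeR or DESeq2, where 2 of each list had an unadjusted p under 0.05, against 36.2% of all miRNAs. Among them miR-449a-5p (log2 fold change 0.98, edgeR adjusted p = 0.0110), miR-881-3p (0.81, 0.0299) and the spermatogonial miR-21a-5p (0.66, 0.0306) were past the threshold on the adjusted p, as were 23.7% of all miRNAs, and fell short of the fold that a call needs. Without Ago413-/- replicate 3, miR-449a-5p was called higher. miR-202-5p remained called without each library in turn, whereas neither blood miRNA was called without Ago413-/- replicate 4 or without Ago413+/+ replicate 1, 2 or 4, and miR-126a-3p was not called without replicate 1 of either genotype. miR-199a-3p was not called without Ago413-/- replicate 1 or Ago413+/+ replicate 1 or 4, nor miR-141-3p without Ago413-/- replicate 1 or Ago413+/+ replicate 2. Without Ago413-/- replicate 3, miR-141-3p fell short of the filter on low counts and was not tested. It passed that filter only through Ago413+/- and Ago413-/- libraries, where it was high, so the filter favoured a call upward. The blood list summed to 49.1 to 501 CPM in Ago413+/+ and 103 to 4807 CPM in Ago413-/-, the endothelial list to 511 to 1988 CPM and 1949 to 5852 CPM. Their part in the level of miR-146a-5p was not tested. Between Ago413-/- and Ago413+/- round spermatids 5.16% of all miRNAs were called higher. Among them were 1 of 5 leukocyte (miR-150-5p), 1 of 2 endothelial (miR-126a-3p), 1 of 5 peritubular and mesenchymal (miR-199a-3p) and 1 of 2 gonadal somatic miRNAs (miR-202-5p). None of 2 blood and none of 5 epithelial miRNAs was called. In the leukocyte list miR-142a-3p (-0.44) and in the peritubular and mesenchymal list miR-145a-5p (-1.01) were lower without a call.

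Other miRNAs of NF-kB and innate immune signalling formed a list of 14, with miR-155-5p, induced in activated leukocytes, miR-132-3p, miR-21a-5p, miR-9-5p and miR-125b-5p among them. Of the 9 that could be tested in round spermatids, 1 was called higher in Ago413-/- against Ago413+/+, miR-223-3p, and none lower, where 7.51% of all miRNAs were called higher. miR-223-3p passed the filter on low counts only through Ago413+/- and Ago413-/- libraries, and without Ago413-/- replicate 3 or 4 it was not tested. The median log2 fold change of the 9 was 0.24, against 0.13 over all miRNAs. In round spermatids the mean of miR-155-5p was 60.6 ± 13.4 CPM for Ago413+/+ and 71.6 ± 8.43 CPM for Ago413-/- (SD, n = 4 each). In spermatocytes none of 8 was called by edgeR, with a median of 0.02 against -0.05, where 2 had an unadjusted p under 0.05, near the 25.5% of all miRNAs. DESeq2 called 1, miR-147-3p (edgeR log2 fold change -1.29), where it called 15.1% of all miRNAs.

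The patterns most like those of the miR-146b arms were of another kind. miR-146b-5p was closest to miR-741-3p (r = 0.781), miR-465d-5p (0.735) and let-7j (0.684), and miR-146b-3p to miR-185-5p (0.873), miR-195a-5p (0.860) and miR-30d-5p (0.839), each over 24 libraries that share depth and scaling. Between miR-146b-5p and miR-146b-3p, from 1 hairpin, r was -0.310. In round spermatids miR-185-5p averaged 503 ± 175 CPM in Ago413+/+, 443 ± 103 CPM in Ago413+/- and 201 ± 13.9 CPM in Ago413-/- libraries. miR-195a-5p averaged 651 ± 182, 898 ± 156 and 283 ± 34.4 CPM in the same order (SD, n = 4 each). Both had their lowest mean in Ago413-/- cells, as did miR-146b-3p.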

How the data were processed

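Total RNA of enriched spermatocytes and round spermatids was made into small RNA libraries (NEBNext) and sequenced on a NextSeq 500. The authors trimmed reads with Trim Galore, counted them on the mature miRNAs of miRBase with the miRDeep2 quantifier (build mm10) and deposited the raw counts of 1978 miRNAs in 24 libraries, without normalization. All columns were used, with groups taken from the labels.

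Counts were analysed with edgeR 4.0.16 in R 4.3.3 (limma 3.58.1, Python 3.11.15): a filter (10 or more counts in 3 or more libraries of a cell type), TMM, glmQLFit and glmQLFTest on the 3 genotypes without covariates, and Benjamini-Hochberg adjustment over 404 (spermatocytes) or 426 miRNAs (round spermatids). Levels and likeness used the 450 miRNAs kept over 24 libraries, with a prior count of 2 for log2 CPM. The code was tested on simulated data. The members and lists were chosen with earlier results of these data known. Named are the 4 arms, list members called in Ago413-/- against Ago413+/+ and, for each arm, the 3 miRNAs with the highest Pearson r; miR-155-5p, miR-150-5p, miR-142a-3p, miR-147-3p, miR-449a-5p, miR-881-3p, miR-21a-5p and hairpins near miR-146b in arm shift were named after their values were seen. Replicate numbers were not taken as pairs, since no label ties a number to an animal or a day. Same-numbered deviations correlated from -0.12 to 0.34 in Ago413-/- against Ago413+/+ spermatocytes and from -0.386 to 0.416 over all genotype contrasts. Between the cell types of a genotype they correlated from -0.165 to 0.425. Alternatives were DESeq2 1.42.0, RLE scaling, library totals, other filters, only the 2 genotypes compared, a replicate block, the 5p arms summed, a pseudocount of 5 and leaving out each library; a term for library numbers and the lists without each library were chosen after seeing the data.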

Additional observations from a re-analysis of the deposited data

Results flagged for a closer look

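Dixon's criterion was applied to groups of 4 libraries that were not all at 0, for the levels of the 4 arms and the log2 ratio of miR-146b-5p to miR-146b-3p. In 3 of 25 such sets a library stood far from the other 3, where chance gives about 1 in 20, or 1.25 of 25 for independent sets of continuous values, which these are not. miR-146a-5p was at 4398 CPM in Ago413+/+ spermatocyte replicate 3 and at 186 to 292 CPM in the other 3 (gap over range 0.975). miR-146b-3p was at 19.2 CPM in Ago413-/- spermatocyte replicate 4, from 4 counts, and at 0 to 2.60 CPM in the others (0.865). miR-146a-3p was at 1.66 CPM in Ago413+/+ spermatocyte replicate 1, from its single count, and at 0 in the others (1).

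The genotype difference of miR-146a-5p had opposite signs in the cell types. Against the Ago413+/+ mean, all Ago413-/- libraries were lower in spermatocytes, by a mean difference of -738 CPM, and higher in round spermatids, by 2832 CPM. The Ago413+/- libraries differed by -917 CPM in spermatocytes and by 1098 CPM in round spermatids. The difference between the cell types was not tested, and the spermatocyte sign rests on replicate 3 of Ago413+/+, without which that mean is 224 CPM.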

How the results depend on the processing

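In spermatocytes, Ago413-/- against Ago413+/+, the log2 fold change of miR-146a-5p (-1.26) ran from -1.75 to 1.26 when 1 library was left out, reversed without Ago413+/+ replicate 3, and was -1.45 (adjusted p = 0.0253, past the threshold) without a filter on low counts. That of miR-146b-3p (-2.25) ran from -4.16 to -1.79 and passed the threshold with DESeq2 (-2.35). That of miR-146b-5p (0.12) was -0.10 by library totals, -0.038 with at least 10 counts in every library, -0.65 with both 5p arms summed and -0.033 to 0.18 without 1 library. In Ago413+/- against Ago413+/+, miR-146b-3p (-0.17) ran from -0.49 to 0.052 without 1 library, positive without Ago413+/- replicate 4, and miR-146a-5p (-1.83) from -2.34 to 0.69, positive without Ago413+/+ replicate 3, with -2.05 without a filter. In Ago413-/- against Ago413+/-, miR-146b-3p (-2.08) was -2.23 with DESeq2 and ran from -3.91 to -1.63. The number of miRNAs called (18) was 61 with DESeq2, 55 without a filter and 11 to 19 without 1 library. In round spermatids, Ago413-/- against Ago413+/+, miR-146a-5p (2.57) was 1.57 with the 5p arms summed and 2.13 to 2.83 without 1 library, and miR-146b-3p (-3.74) ran from -4.13 to -3.50. miR-146b-5p (0.36) was 0.14 by library totals, without a filter or with only the 2 genotypes, 1.57 summed and 0.10 to 0.43 without 1 library. Against Ago413+/-, miR-146b-5p (0.27) was 0.030 by library totals, 0.11 without a filter, 0.76 summed and 0.15 to 0.32 without 1 library; Ago413+/- against Ago413+/+ gave 0.81 summed. The number called (69) was 42 with at least 10 counts in every library, 101 on the adjusted p alone and 51 to 74 without 1 library. The log2 ratio of miR-146b-5p to miR-146b-3p rose by 2.67 in spermatocytes and 3.60 in round spermatids, and by 0.40 and 1.68 with a pseudocount of 5, which is more than the 3p count of any Ago413-/- library. The causes of the other shifts were not tested. With the replicate block no arm was called in spermatocytes (-0.32 for miR-146a-5p), as without it, and the round spermatid value of miR-146a-5p, which has no test, was 2.61. miR-146b-3p has no value with at least 10 counts in every library, and its depth, at most 27 counts in a library, limits every statement on it.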
